A study of Mus musculus with 14 samples.

Results

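The clustered protocadherins are cell-surface adhesion proteins of the cadherin superfamily whose genes lie in 3 neighbouring arrays, alpha, beta and gamma. Members were all genes of the deposited table of normalized values whose name starts with Pcdha or Pcdhg, or with Pcdhb and a number, which gave 44 of its 16181 genes. The alpha cluster had 3 members, the beta cluster 20 and the gamma cluster 21. The deposited count table, which lists 50686 genes, holds 58 clustered protocadherins, 14 alpha, 22 beta and 22 gamma. All lie on the plus strand of mouse chromosome 18 (GRCm38), alpha from 36930184 to 37187661, beta from 37264938 to 37524479 and gamma from 37661793 to 37841873.

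In these arrays each large variable exon has a promoter of its own and encodes the extracellular part of the protein, with which cells bind others that carry the same isoforms. In the alpha and gamma clusters the variable exon is spliced to constant exons that all genes of the cluster share and that encode the end of the cytoplasmic tail. The beta genes have no constant exons. The genes are best known from the nervous system, where neurons switch on different combinations of promoters, and the displayed combination lets a neuron tell its own branches from those of other neurons. Promoter choice depends on CTCF and cohesin, and DNA methylation by Dnmt3b and the chromatin protein Smchd1 are known to keep promoters silent. The C-type genes, Pcdhac1, Pcdhac2, Pcdhgc3, Pcdhgc4 and Pcdhgc5, lie at the ends of their arrays and are regulated apart from the others.

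RNA was sequenced from 2 mouse embryonic stem cell (ESC) lines with a stable short hairpin RNA, shLacZ against a bacterial gene as control and shDis3l2 against Dis3l2, an exoribonuclease that degrades RNAs with uridine tails. The study describes its stable hairpin lines in ESCs that carry an Osr1-GFP reporter, and the labels do not say which parent line these libraries had. Both lines were sampled undifferentiated in LIF and 2i (d0) and as embryoid bodies (EBs), aggregates that differentiate in serum without LIF and 2i, every 2 days from d2 to d12. There was 1 library per line and day, 14 in all, so that no day has a replicate and a line stands for itself and not for other clones or cultures.

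Between 7178712 (shLacZ d4) and 39888099 (shLacZ d0) reads were counted on genes per library. A count of 3, used here as the limit of detection, corresponded to 0.0752 CPM (reads of a gene per megaread counted on all genes of the library) in the deepest library and to 0.418 CPM in the shallowest. The undifferentiated shLacZ cells held 28.7 CPM of Dis3l2 and those labelled shDis3l2 3.93 CPM, the direction the label states. At d8, however, Dis3l2 stood at 20.2 and 19.6 CPM and at d10 at 19.2 and 18.3 CPM. Directions on these later days therefore rest on the labels alone, and the libraries are called labelled shDis3l2 throughout. All 6 markers of pluripotent cells were detected in all 14 libraries, with a summed level of 2913 and 2072 CPM at d0 and between 55.0 and 503.9 CPM from d6 to d12.

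Reads that fall on exons of several genes were not counted, as far as the table shows: the 657 genes without any exon base of their own on their strand had 0 reads. The constant exons of the alpha and gamma clusters therefore add nothing, and a value stands for the variable exon. The median member of the count table kept 46.4% of its exon length as its own in the alpha cluster, 55.3% in the gamma cluster and 100% in the beta cluster. Levels of different genes are corrected for this only where CPM per kilobase of own exon is given. Rankings by CPM, cluster sums and shares of reads are not corrected for length. Reads were counted by strand, since 230 of 438 genes whose exons are all overlapped from the other strand had reads. Reads among near-identical variable exons may have been split or lost, which is most uncertain for the beta genes and the A and B types of the gamma genes.

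The 3 clusters differed in when their reads appeared. At d0, 0 reads of the alpha members were counted in either line, and the beta members had 3 reads in shLacZ and 1 in the library labelled shDis3l2. The gamma members were already present, with 5.06 CPM in shLacZ and 4.80 CPM in the library labelled shDis3l2. From d0 to d2 the gamma sum was higher in both lines, at 38.7 and 26.2 CPM, while the beta sum was still at 1.67 and 1.59 CPM and the alpha sum at 0.493 and 0.561 CPM. At d4 the beta sum reached 4.04 and 4.45 CPM and the gamma sum 80.8 and 87.7 CPM.

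From d6 on the lines separated. In shLacZ the gamma sum stayed near its level of d4, with 78.9, 73.5, 67.4 and 84.0 CPM at d6, d8, d10 and d12, whereas the libraries labelled shDis3l2 held 130.4, 156.6, 169.2 and 150.1 CPM. The beta sum was 7.14, 16.3, 13.6 and 18.2 CPM in shLacZ and 25.5, 46.7, 93.5 and 108.6 CPM in the libraries labelled shDis3l2. The alpha sum was 2.25, 1.77, 1.33 and 1.69 CPM against 5.0, 5.70, 4.26 and 4.68 CPM. On each of these 4 days the library labelled shDis3l2 was the higher in all 3 clusters, and the values of the lines over these days did not overlap.

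**Figure D1:**
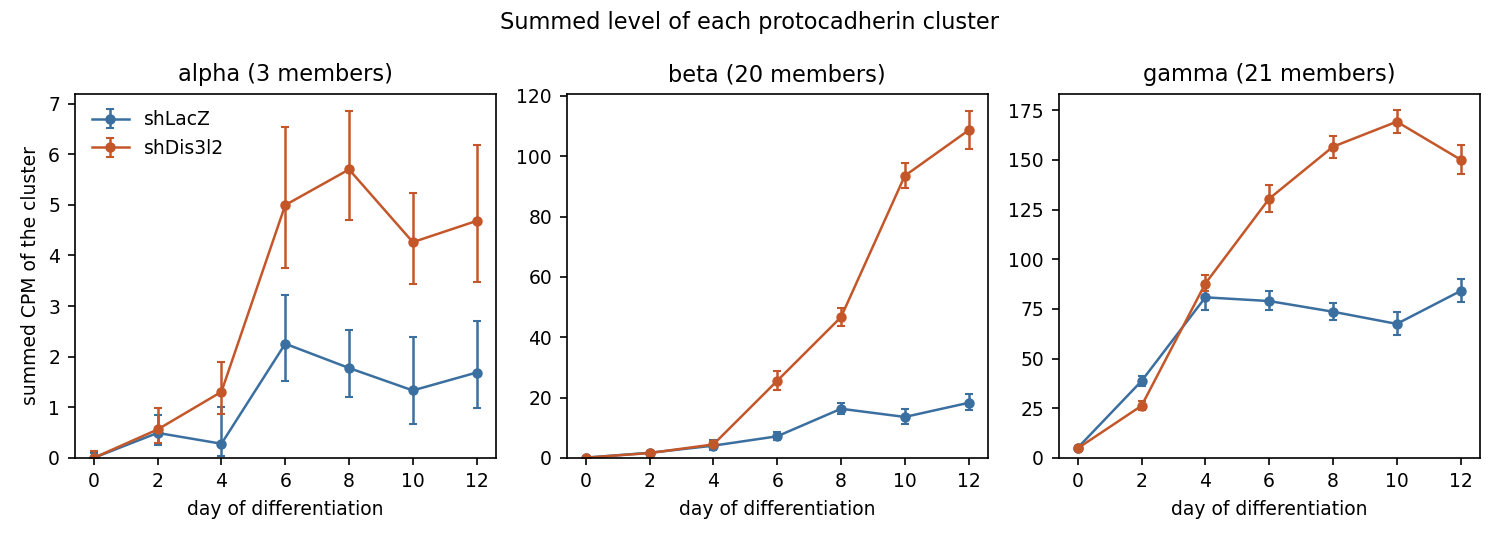
Summed CPM of the alpha, beta and gamma members (vertical axes, each with its own scale) by day of differentiation, with 1 point per library and bars for the exact 95% interval of the summed count. The lines lie together up to d4, apart from gamma at d2 and alpha at d4, and the beta sum of the line labelled shDis3l2 climbs to 108.6 CPM at d12 while that of shLacZ stays at or below 18.2 CPM.

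As ratios of the line labelled shDis3l2 over shLacZ, scaled by library totals and with exact 95% intervals that cover counting error only, beta stood at 0.953 (0.590 to 1.52) at d2 and 1.10 (0.718 to 1.73) at d4. It then stood at 3.58 (2.82 to 4.57), 2.87 (2.50 to 3.29), 6.90 (5.70 to 8.42) and 5.95 (5.09 to 6.99) at d6, d8, d10 and d12. The gamma ratio was 0.947 (0.753 to 1.19) at d0, 0.678 (0.611 to 0.752) at d2 and 1.09 (0.989 to 1.19) at d4. The early EBs labelled shDis3l2 thus held fewer gamma reads at d2, which is the opposite direction to the later days. The gamma ratio was 1.65 (1.52 to 1.79), 2.13 (1.99 to 2.28), 2.51 (2.29 to 2.75) and 1.79 (1.64 to 1.94) from d6 to d12. The alpha ratio was 2.22 (1.39 to 3.59), 3.21 (2.13 to 4.98), 3.20 (1.71 to 6.64) and 2.78 (1.57 to 5.14) on these days. At d4 the alpha ratio of 4.68 (1.18 to 40.6) rested on 27 reads against 2 and was 1.73 (0.801 to 4.29) when all 14 alpha entries of the count table were summed, an alternative added after the values were seen. EBs are mixtures of cell types, and in such bulk RNA fewer cells of a type and less RNA per cell cannot be told apart.

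Over the whole course the gamma sum at d12 was 16.6 times that at d0 in shLacZ (14.2 to 19.4) and 31.3 times in the line labelled shDis3l2 (26.1 to 37.8). The scaling bears on these ratios, since the libraries of d0 differ in composition from the EBs: with TMM, a scaling that allows for composition, they were 12.1 and 17.9. For beta the ratio in shLacZ was 243 but rested on 3 reads at d0 (81.7 to 1187), and for the line labelled shDis3l2 it was at least 959-fold against the floor of 3 counts. For alpha it was at least 22.4-fold and at least 41.3-fold against that floor. These bounds also depend on the scaling: with TMM that of beta in the line labelled shDis3l2 was 549 and those of alpha 16.3 and 23.7, and with DESeq2 size factors they were 487, 15.8 and 21. The beta ratio in shLacZ was 177 with TMM and 171 with DESeq2 size factors. From d2 to d12, beta differed 10.9-fold in shLacZ (7.84 to 15.6) and 68.4-fold in the line labelled shDis3l2 (48.6 to 99.2).

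Markers of several cell types also differed between the lines from d6 on. Of 12 mesenchyme markers tested, 10 were higher and 0 lower in the libraries labelled shDis3l2, among them Col1a1, Col3a1, Postn and Dcn, which encode matrix proteins of connective tissue (edgeR quasi-likelihood test with Benjamini-Hochberg adjustment, described below). The summed mesenchyme markers held 409.5, 1895, 1948 and 1473 CPM in shLacZ at d6, d8, d10 and d12 and 1264, 10048, 16305 and 16834 CPM in the libraries labelled shDis3l2, with all 12 detected in these 8 libraries. Pdgfra and Thy1 did not pass. Visceral endoderm markers such as Afp and Ttr went the other way, 8 of 8 lower, with sums between 2004 and 4246 CPM in shLacZ and between 416.5 and 1279 CPM in the libraries labelled shDis3l2. Of 12 neural markers 10 were tested, with 1 higher (Nes) and 5 lower, and their sum from d6 to d12 was 87.7, 72.1, 112.7 and 154.6 CPM in shLacZ and 199.9, 113.8, 89.7 and 122.2 CPM in the libraries labelled shDis3l2. The neural sum was thus higher in the line labelled shDis3l2 at d6 and d8 and lower at d10 and d12. In the undifferentiated cells of d0 it was already 383.7 CPM in shLacZ and 243.0 CPM in the library labelled shDis3l2. This sum therefore does not stand for neural cells alone. The pluripotent list had 5 of 6 lower, the cardiomyocyte list 5 of 5 tested higher, and the endothelial and blood lists 2 of 5 higher each. In the same fit 19.6% of all genes were higher and 18.7% lower.

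Of these lists, the mesenchyme markers followed the beta cluster most closely over the libraries. Pearson's r between the log2 sums, with 1 added to each CPM, was 0.99 over the 14 libraries and 0.95 over the 8 libraries of d6 to d12. The points share the library, its depth and the course of differentiation, so that r is given as a description. Over the same 8 libraries the gamma sum had r = 0.77 with the mesenchyme list and alpha r = 0.61. The beta sum also had r = 0.93 with the cardiomyocyte list and 0.10 with the neural list. The gamma and alpha sums had r = -0.79 and -0.90 with the visceral endoderm list, and gamma 0.82 with the cardiomyocyte list. With the endothelial list gamma had r = 0.71 and alpha 0.79, and with the pluripotent list -0.67 and -0.81. Alpha was thus closer to the endothelial list than to the mesenchyme list. The part of these cell types in the protocadherin differences was not tested.

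**Figure D2:**
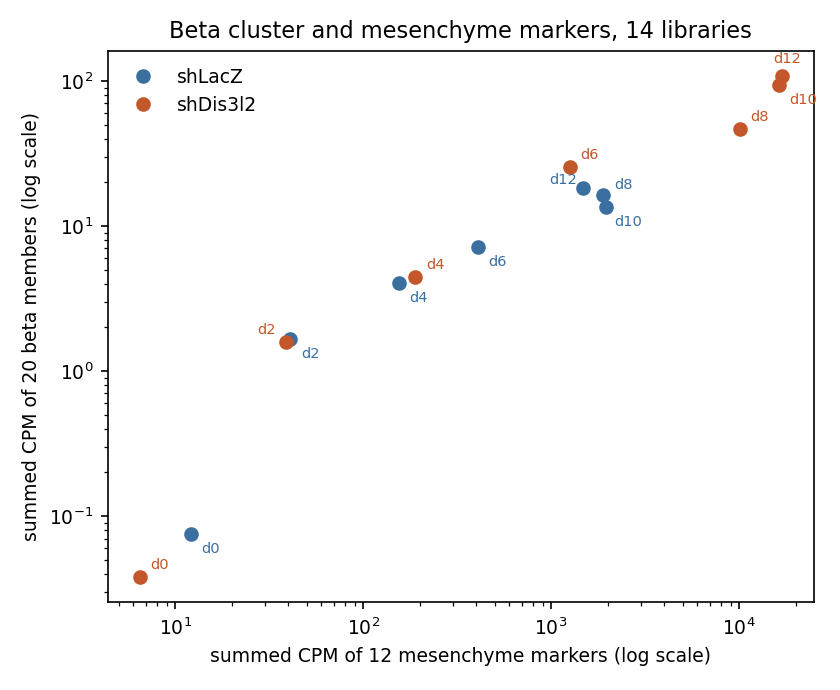
Summed CPM of the 20 beta members (vertical) against the summed CPM of 12 mesenchyme markers (horizontal), both on log scales, with 1 point per library labelled by its day. The libraries labelled shDis3l2 of d8, d10 and d12 lie above all shLacZ libraries on both axes, and shLacZ d8, d10 and d12 lie below shDis3l2 d6 on the vertical axis at a higher marker sum.

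Within the beta cluster the reads were spread over many genes, led by Pcdhb22, the last gene of the array and the nearest to the gamma cluster. In shLacZ Pcdhb22 had 0.0501, 0.265, 1.67, 3.61, 4.79, 3.39 and 4.17 CPM from d0 to d12. In the libraries labelled shDis3l2 it had 0, 0.327, 1.79, 11.5, 15.9, 21 and 20.1 CPM. It was at like levels up to d4 and higher in the line labelled shDis3l2 on each later day, by a log2 fold of 2.04 ± 0.20 (SE) over d6 to d12 (edgeR quasi-likelihood test, adjusted p = 0.000758). Beta proteins are single-exon protocadherins without the shared cytoplasmic tail, and no beta gene has a C-type form.

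Pcdhb19, the next highest by mean CPM, stood at 0.752, 3.14, 2.30 and 3.07 CPM in shLacZ from d6 to d12 and at 3.02, 7.89, 17.5 and 19.7 CPM in the libraries labelled shDis3l2. Its log2 fold was 2.21 ± 0.29 (edgeR, adjusted p = 0.002), and the lines overlapped, since the d6 library labelled shDis3l2 was just below shLacZ of d8 and d12. Pcdhb17 had 0.526, 1.18, 2.42 and 2.28 CPM against 1.41, 3.71, 10.9 and 10.5 CPM, a log2 fold of 1.92 ± 0.22 (edgeR, adjusted p = 0.00123). Its lines overlapped as well, with the d6 library labelled shDis3l2 below shLacZ of d10 and d12. Pcdhb21 had 0.451, 1.54, 1.57 and 1.09 CPM against 3.68, 5.34, 7.67 and 6.74 CPM, with a log2 fold of 2.33 ± 0.25 (edgeR, adjusted p = 0.00103) and no overlap between the lines. Of these genes Pcdhb17 lost its call under 1 of 8 alternatives and the other 3, with Pcdhb22 among them, under 0 of 8.

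The widest beta differences were in genes close to 0 in shLacZ. Pcdhb5 had 0, 2, 0 and 3 reads in shLacZ from d6 to d12 and 1, 8, 36 and 26 reads in the libraries labelled shDis3l2, a log2 fold of 3.11 ± 0.66 (edgeR, adjusted p = 0.0106). Pcdhb13 had 1 read in these 4 shLacZ libraries together, at d10, and 0, 2, 18 and 17 reads in the libraries labelled shDis3l2. Like that of Pcdhb5, its fitted log2 fold of 4.04 ± 0.93 (edgeR, adjusted p = 0.0189) depends on the prior count, and at d12 it was at least 5.35-fold higher against the floor of 3 counts. Pcdhb11, with 105 reads against 1 at d10 and 70 against 8 at d12, had the largest value of the first part of the array, 6.55 CPM in the library labelled shDis3l2 of d12. In the shallower shLacZ libraries of d10 and d12, genes at these levels were at the limit of detection.

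**Figure D3:**
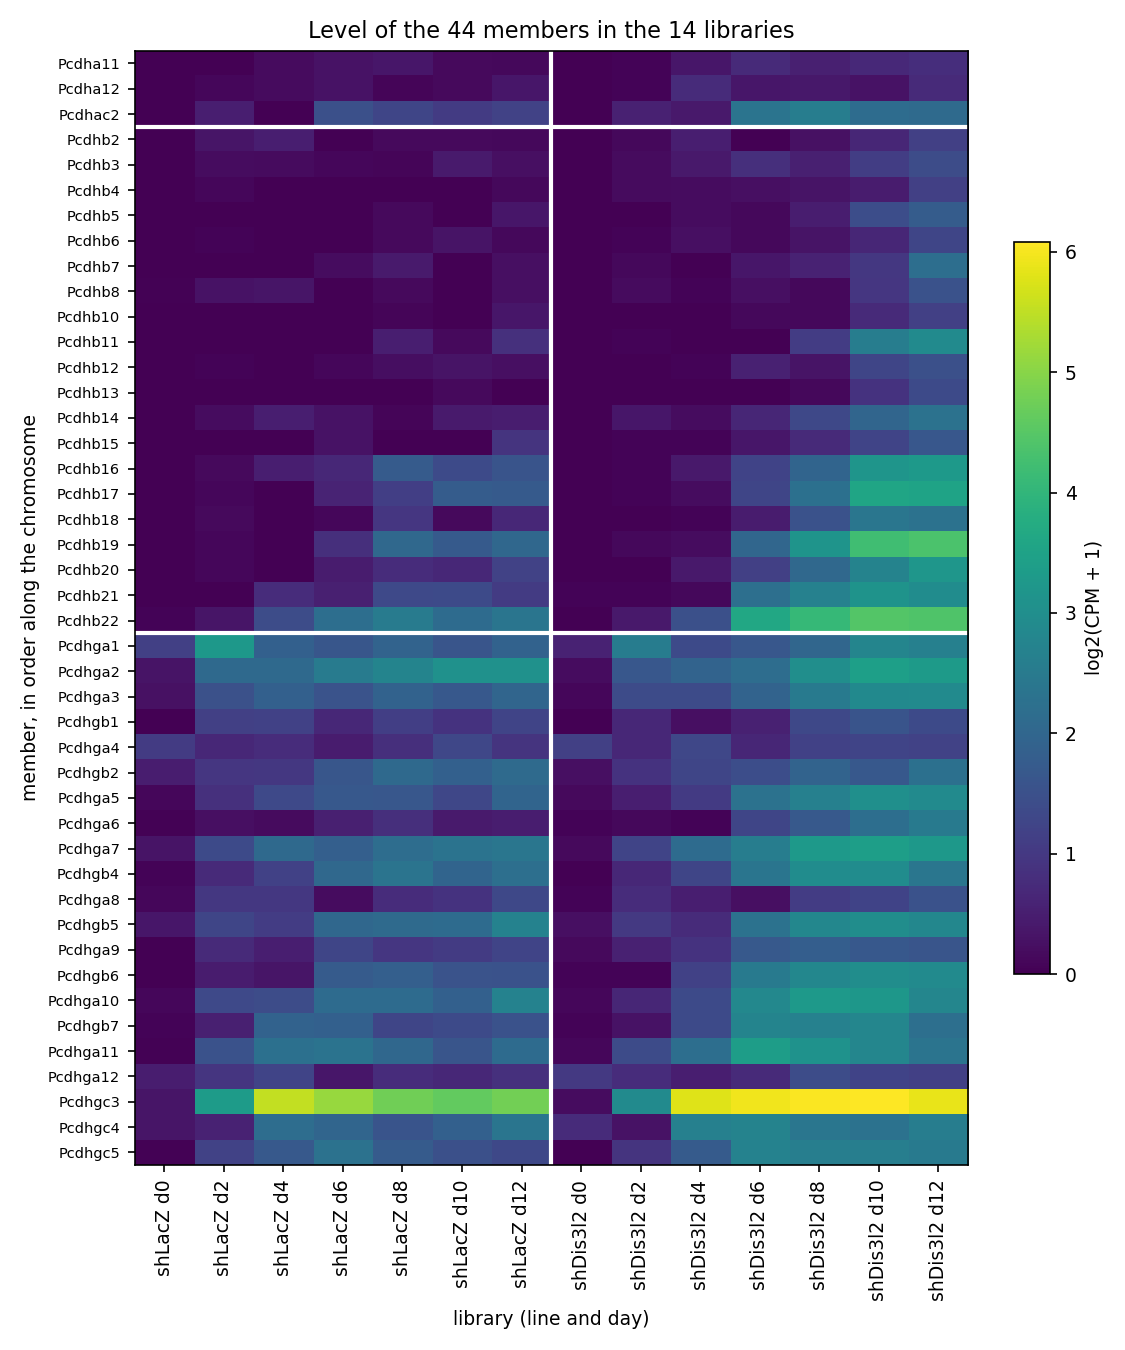
Level of the 44 members as log2(CPM + 1) (colour) in the 14 libraries (columns, shLacZ to the left and shDis3l2 to the right, d0 to d12 within each), with members in order along the chromosome and white lines between clusters and lines. The row of Pcdhgc3 is the brightest from d4 on in both lines, and the brightest beta rows are those nearest the gamma cluster.

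The level of a beta gene went with its place in the array. Per kilobase of own exon, the 2 highest beta genes by mean over the libraries were Pcdhb22 with 1.03 and Pcdhb19 with 0.577 CPM per kb. The lowest were Pcdhb4, at 0.0480 CPM per kb, and Pcdhb13, at 0.0514 CPM per kb. Spearman's rho between position and CPM per kb over the 22 beta genes lay between 0.610 and 0.828 in the 7 libraries with at least 100 beta reads, 3 of shLacZ and 4 labelled shDis3l2. Over the 22 gamma genes it lay between -0.433 and 0.394 in the 14 libraries. These values are descriptions over genes of 1 locus, which are not independent.

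Split at the middle of the array, a split made after the values were seen, Pcdhb1 to Pcdhb13 had 10 reads in shLacZ and 305 in the library labelled shDis3l2 at d10, and 26 and 271 at d12. That is 11.9-fold (6.40 to 25.1) and 9.84-fold (6.57 to 15.3). Pcdhb14 to Pcdhb22 had 102 and 1675 reads at d10 and 159 and 898 at d12, that is 6.42-fold (5.26 to 7.93) and 5.33-fold (4.50 to 6.35). At d6 the first part was at 7.52-fold (2.58 to 29.8), on 24 reads against 4, and the second at 3.42-fold (2.68 to 4.39). At d8 the order was the other way, with 2.58-fold (1.64 to 4.19) in the first part and 2.91-fold (2.52 to 3.37) in the second. The intervals of the 2 parts overlap at d6, d8 and d10 and not at d12, and the difference between the parts was not tested.

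The number of beta members above 3 counts in shLacZ was 0, 5, 2, 6, 9, 6 and 10 of 20 from d0 to d12. In the libraries labelled shDis3l2 it was 0, 2, 6, 10, 17, 20 and 20. After thinning each library to the 7178712 reads of the shallowest, the median over 20 draws was 6 and 9 in shLacZ at d10 and d12 and 18 and 20 in the libraries labelled shDis3l2, so that the gap was present at equal depth. The remaining beta genes of the count table, Pcdhb1 and Pcdhb9, were lower still. Pcdhb1 was at 6 reads in shLacZ d2, at 2 reads in the other library of d2 and at 0 elsewhere. Pcdhb9 had 0 or 1 read in each shLacZ library and up to 9 in those labelled shDis3l2.

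The gamma cluster was led by a single gene. Pcdhgc3, a C-type gene at the end of the array that is widely expressed and not subject to random choice in neurons, stood at 0.276, 9.17, 45.1, 34.6, 26.0, 23.5 and 26.7 CPM in shLacZ from d0 to d12. In the libraries labelled shDis3l2 it stood at 0.151, 6.5, 54.6, 60.9, 65.0, 66.8 and 58.0 CPM. In shLacZ its highest value was at d4 and the later values were lower, whereas in the other line the values after d4 were all above that of d4. Its log2 fold over d6 to d12 was 1.18 ± 0.12 (edgeR, adjusted p = 0.000921). Per kilobase of own exon it averaged 10.1 CPM over the 14 libraries, against 1.85 for Pcdhga2, the next highest.

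At d0 Pcdhgc3 was not the leading gamma gene: it held 11 of 202 gamma reads in shLacZ (5.45%, 2.75 to 9.53, exact binomial interval) and 4 of 127 in the library labelled shDis3l2. Per kilobase, Pcdhga4 led in both undifferentiated libraries with 0.687 and 0.770 CPM per kb. Pcdhga1 was next in shLacZ and Pcdhga12 in the other line. At d2 Pcdhga1, the first gene of the gamma array, had its highest value of the course in shLacZ, 8.41 CPM, and 4.91 CPM in the library labelled shDis3l2. At d4 Pcdhgc3 then held 55.9% (51.7 to 60.0) and 62.2% (59.9 to 64.4) of the gamma reads. By d12 its share was 31.8% (28.6 to 35.0) and 38.6% (36.2 to 41.0).

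The other C-type gamma genes were lower. Pcdhgc4, which is known for its role in neuronal survival, had 2.93, 2.01, 2.66 and 4.17 CPM in shLacZ from d6 to d12 and 5.56, 4.27, 3.93 and 4.96 CPM in the libraries labelled shDis3l2. The lines overlapped, and the log2 fold of 0.70 ± 0.21 (edgeR, adjusted p = 0.039) lost its call under 5 of 8 alternatives. Pcdhgc5 had 3.91, 2.37, 1.82 and 1.49 CPM against 5.47, 5.09, 5.11 and 4.68 CPM without overlap, a log2 fold of 1.12 ± 0.24 (edgeR, adjusted p = 0.0118). Pcdhgc5 went down from d6 to d12 in shLacZ, while Pcdhgc4 was highest there at d12.

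Among the A and B types, which are the randomly chosen gamma genes of neurons, the difference between the lines was uneven. Pcdhga2, the highest of them, had 4.74, 5.74, 7.38 and 7.44 CPM in shLacZ and 3.49, 7.07, 9.76 and 8.99 CPM in the libraries labelled shDis3l2. Its log2 fold was 0.15 ± 0.19 (edgeR, adjusted p = 0.559), lower at d6 and higher on the 3 later days. Pcdhgb2 had 2.10, 3.19, 2.66 and 3.27 CPM against 1.70, 2.85, 2.18 and 3.75 CPM, with a log2 fold of -0.14 ± 0.21 (edgeR, adjusted p = 0.621). These 2 genes had the smallest folds of the cluster and did not pass the test.

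Pcdhga7 and Pcdhga11 did pass. Pcdhga7 had 2.56, 3.49, 3.99 and 4.26 CPM in shLacZ and 5.0, 8.60, 9.61 and 8.43 CPM in the libraries labelled shDis3l2, a log2 fold of 1.13 ± 0.16 (edgeR, adjusted p = 0.00275). Pcdhga11 had 3.98, 3.08, 2.06 and 3.37 CPM against 9.52, 7.58, 5.92 and 4.03 CPM, a log2 fold of 1.09 ± 0.24 (edgeR, adjusted p = 0.0135), and its values in the line labelled shDis3l2 were lower on each later day. Neither gene's groups overlapped. Pcdhga6, the neighbour of Pcdhga7 in the array, was the furthest apart of the gamma genes, with 0.451, 0.769, 0.363 and 0.397 CPM against 1.41, 2.24, 3.55 and 4.59 CPM. Its log2 fold was 2.36 ± 0.41 (edgeR, adjusted p = 0.00514), and at d12 it stood at 49 reads against 4, 11.6-fold (4.24 to 44.1).

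By type, the 12 A genes were at 0.672 of shLacZ at d2 (0.585 to 0.770), the 6 B genes at 0.667 (0.494 to 0.896) and the 3 C genes at 0.695 (0.570 to 0.845). At d12 they stood at 1.66 (1.45 to 1.90), 1.47 (1.21 to 1.78) and 2.09 (1.83 to 2.39). The C types without Pcdhgc3 were at 1.71 (1.22 to 2.40) at d12. The lower level at d2 was thus present in all 3 types.

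In the alpha cluster Pcdhac2, a C-type gene, carried most of the reads. It had 24, 24, 9 and 13 reads in shLacZ from d6 to d12, that is 1.80, 1.42, 1.09 and 1.29 CPM, and 43, 97, 72 and 35 reads in the libraries labelled shDis3l2, that is 4.05, 4.94, 3.41 and 3.28 CPM. The lines did not overlap, and the log2 fold was 1.48 ± 0.23 (edgeR, adjusted p = 0.00322). Pcdha11 had at most 5 reads in an shLacZ library and 13 in the other line, and Pcdha12 at most 3 and 14. Both were too low for the test. Pcdhac2 held between 70.0% and 86.6% of the alpha reads in the 8 libraries of d6 to d12.

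The 14 entries of the count table without normalized values were at or close to the limit of detection, Pcdhgb8 apart. Pcdha4 had 0 reads in all libraries, which allows at most 0.0752 CPM in the deepest on the bases counted. Only 494 of its 5768 exon bases were its own, so the 0 says little of its level. Pcdha7, Pcdha8 and Pcdhac1 had at most 1 read in any library and Pcdha1, Pcdha2 and Pcdha6 at most 2. Pcdha3, Pcdha5 and Pcdha9 reached 6, 10 and 7 reads, and a further entry named Pcdha11 reached 4. Pcdhgb8 reached 69 reads, at d10 in the library labelled shDis3l2, with 13 in shLacZ. Of the C-type alpha genes, Pcdhac2 was thus detected and Pcdhac1 was not detectable at this depth.

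The shift in balance between clusters does not depend on scaling. Beta reads were 4.09% of all member reads in shLacZ at d2 and 5.6% in the library labelled shDis3l2, and 4.75% in both libraries at d4. At d6 they were 8.09% and 15.9%. At d8 the gap was smallest of the later days, with 17.8% (15.9 to 19.8) and 22.3% (21.1 to 23.6). At d10 the shares were 16.5% (13.8 to 19.5) and 35.0% (33.8 to 36.3), and at d12 17.6% and 41.2%. Beta thus took a larger share of the protocadherin reads in the line labelled shDis3l2 on each day from d6, with exact binomial intervals that did not overlap on any of these 4 days.

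**Figure D4:**
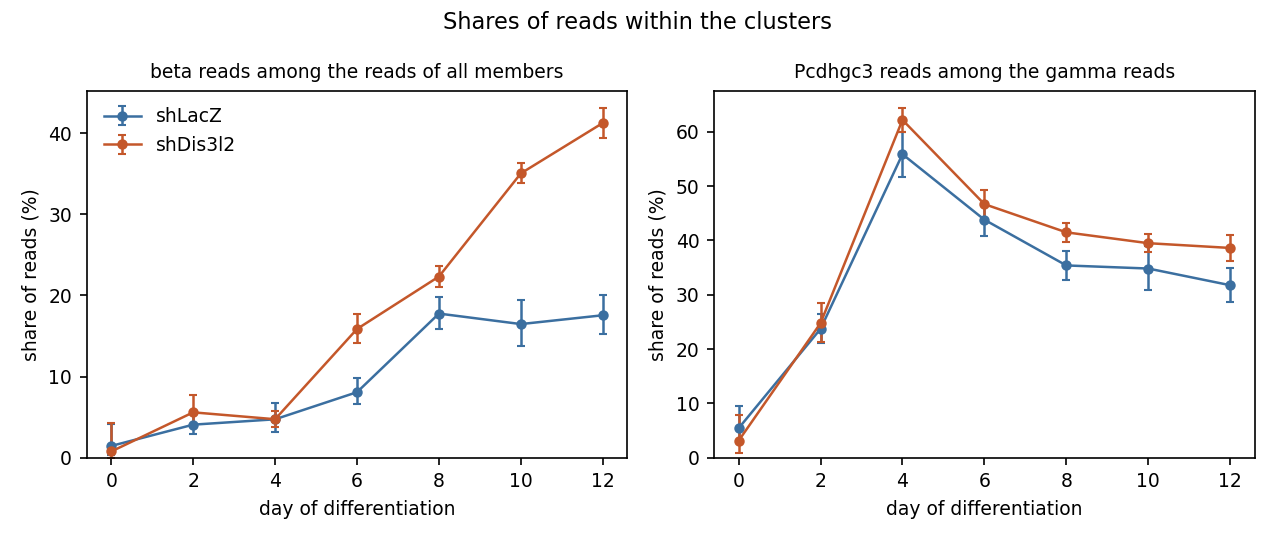
Share of reads in percent (vertical) by day of differentiation for the beta members among all 44 members (left) and for Pcdhgc3 among the gamma members (right), with exact 95% binomial intervals. The beta share of the line labelled shDis3l2 reaches 41.2% at d12 against 17.6% in shLacZ, and the Pcdhgc3 share peaks at d4 in both lines.

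Counted day by day, members were taken as higher or lower at a fold of at least 3, with at least 1 CPM in 1 of the 2 libraries of the day. At d0, 0 of 3 comparable members were higher and 0 lower, beside 0.6% and 2.36% of protein-coding genes, and at d2 0 of 10 were higher and 0 lower beside 0.114% and 0.144%. At d4, 1 of 19 was higher (Pcdhgb6) and 2 were lower (Pcdhgb1 and Pcdhga12), beside 0.384% and 1.69%, each on 10 or fewer reads in shLacZ. From d6 on 0 were lower. At d6, 5 of 24 were higher beside 2.73% of protein-coding genes (4.27% lower), and at d8 7 of 31 beside 5.5% (3.77% lower).

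At d10, 19 of 35 members were higher, 13 of 13 comparable beta, 5 of 21 gamma and the 1 comparable alpha member, beside 8.68% of protein-coding genes (3.17% lower). At d12 it was 22 of 42, beside 8.17% (1.42% lower). Of these 22, 19 were beta, out of 20, with Pcdhb15 the exception, and the other 3 were Pcdhga6, Pcdhgb6 and Pcdhgc5. A member below 1 CPM in shLacZ enters such a count only through the library in which it is high, and can then only be called higher. At d12 this held for all beta members but Pcdhb16, Pcdhb17, Pcdhb19, Pcdhb20, Pcdhb21 and Pcdhb22. At d10 it held for the comparable beta members other than Pcdhb16, Pcdhb17, Pcdhb19, Pcdhb21 and Pcdhb22. Of the 42 members with at least 1 CPM in 1 library of d6 to d12, 34 were higher in the line labelled shDis3l2 on all 4 days and 0 lower, beside 29% and 26.5% of 14396 protein-coding genes. These were 16 of 20 beta, 17 of 21 gamma and 1 of 1 alpha. Members that reached 1 CPM only in libraries labelled shDis3l2 lean this count toward higher as well.

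Whether a difference was steady was tested on the 8 libraries of d6 to d12 with edgeR's quasi-likelihood test, in which each day has its own term, and with Benjamini-Hochberg adjustment over all 17164 genes tested. The days of 1 series stand in for replicates here, so the p-values measure only how even a difference was over these days and say nothing of other cultures of the lines. The standard error is the absolute log2 fold divided by the square root of F. Of the 44 members 38 passed the filter on low counts, 29 were higher and 0 lower in the libraries labelled shDis3l2, beside 19.6% of all genes higher and 18.7% lower. The 29 were 1 of 1 alpha, 15 of 16 beta and 13 of 21 gamma members. Most of the 16 beta members tested, Pcdhb5 and Pcdhb13 among them, had at most 9 reads in each shLacZ library of these days. They passed the filter only through the libraries in which they were high. Their direction was thus largely set by the filter. The beta count and median rest largely on such members and are not a like comparison with all genes. The median log2 fold was 1.48 for alpha, 2.33 for beta and 0.97 for gamma members tested, beside 0.02 for all genes.

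Pcdhb15, with a log2 fold of 2.13 ± 0.77 (edgeR, adjusted p = 0.0649), was the beta member tested that did not pass. Pcdha11, Pcdha12, Pcdhb2, Pcdhb4, Pcdhb6 and Pcdhb10 were left out as too low. Without d10, the day whose shLacZ library held 8261330 reads against 21115319 in the other, 13 of 32 members tested were higher, beside 1695 of 16739 genes in that fit. Without the day term, 16 of 28 were, beside 1896 of 16016 genes. The weakest calls included Pcdhb16, lost under 3 of 8 alternatives, and Pcdhga12, lost under 6 of 7, while Pcdhga11 and Pcdhgc5 lost theirs under 2 of 8 each.

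**Figure D5:**
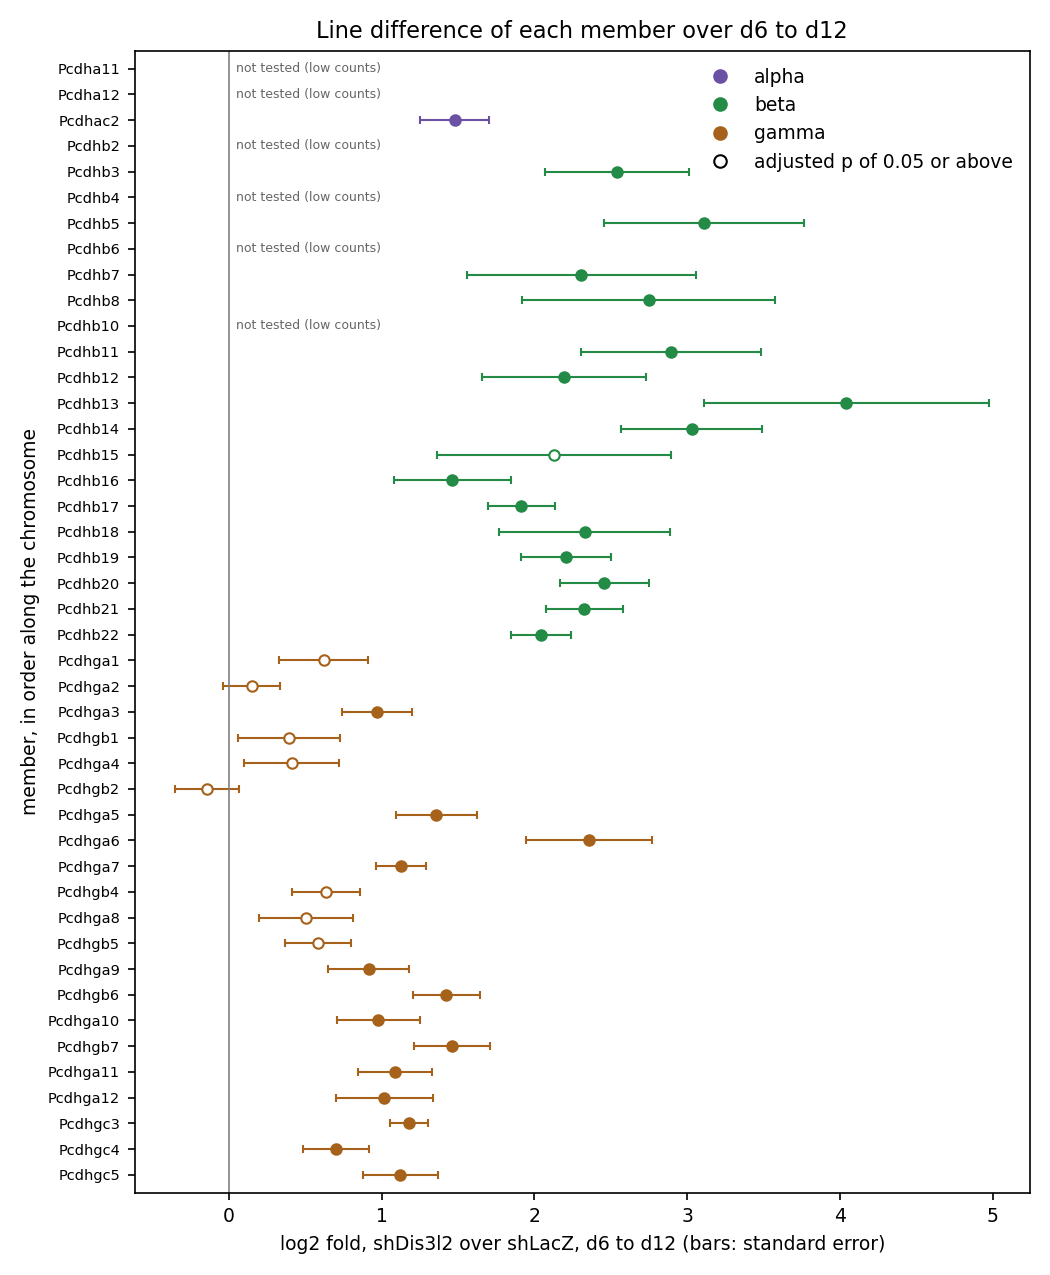
Log2 fold of the libraries labelled shDis3l2 over shLacZ across d6 to d12 (horizontal, bars are the standard error) for each member in order along the chromosome, with open points for an adjusted p of 0.05 or above and text for members not tested. The beta members lie between 1.46 and 4.04 and the gamma members between -0.14 and 2.36.

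Whether the gap between the lines was itself wider or narrower on d6 to d12 than on d0, d2 and d4 was tested over all 14 libraries, with day and line as terms. Of 43 members tested, 4 changed toward higher in the line labelled shDis3l2 and 0 toward lower. They were Pcdhb22, Pcdhga7, Pcdhgb7 and Pcdhgc3, with changes of the log2 fold of 1.93, 1.23, 2.17 and 1.21 (edgeR, adjusted p = 0.0438, 0.0486, 0.0219 and 0.0161). Over all 20050 genes tested 4.85% changed toward higher and 5.24% toward lower, that is 972 and 1051 genes. With library totals in place of TMM these were 1135 and 415, the median of all genes moved from -0.04 to 0.13, and 4 members again passed. The count fell to 0 without d2, without d8 or without d10, to 1 without d4 and to 2 without d0 or without d12. Most beta members had a handful of reads or 0 on d0 to d4, which leaves this test little to work with.

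Of 25 genes known to govern promoter choice and silencing of the clusters, 5 were higher and 5 lower over d6 to d12 in the libraries labelled shDis3l2 (edgeR, adjusted p under 0.05), with a median log2 fold of 0.04. That is close to the 19.6% and 18.7% of all genes in the same fit, so the count says nothing particular of these regulators. Dnmt3b, the DNA methyltransferase that acts on protocadherin promoters in the early embryo, had 240.1, 367.4, 426.9 and 252.0 CPM in shLacZ from d6 to d12 and 106.5, 41.0, 40.2 and 82.5 CPM in the libraries labelled shDis3l2. The lines did not overlap, and the log2 fold was -2.35 ± 0.39 (edgeR, adjusted p = 0.00439). At d2 it was at 2295 and 1917 CPM, the highest of the course in both lines.

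Of the TET dioxygenases, which oxidise methylated cytosine, Tet2 was higher with a log2 fold of 1.11 ± 0.21 (edgeR, adjusted p = 0.007) and Tet1 lower with -0.91 ± 0.15 (edgeR, adjusted p = 0.00388). Ctcf, which binds the promoters and their enhancers, was lower by a small amount, with a log2 fold of -0.32 ± 0.06 (edgeR, adjusted p = 0.00868), a call lost under 1 of 8 alternatives. Smchd1 had 142.6, 126.3, 122.1 and 126.8 CPM in shLacZ and 150.9, 126.2, 120.7 and 134.2 CPM in the other line, a log2 fold of 0.03 ± 0.06 (edgeR, adjusted p = 0.754). Dnmt3b is also high in pluripotent cells, whose markers were lower in the same libraries, and its part in the protocadherin levels was not tested.

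Of 19 genes that cut protocadherins or signal from their cytoplasmic tails, 6 were higher and 0 lower. The share over all genes in the same fit was 19.6% higher and 18.7% lower, and the median log2 fold of the list was 0.08. Marcks, a protein kinase C substrate at the membrane that is linked to gamma protocadherin signaling, had 142.6, 115.2, 76.3 and 109.5 CPM in shLacZ from d6 to d12 and 326.7, 270.3, 271.8 and 240.1 CPM in the libraries labelled shDis3l2. Its log2 fold was 1.33 ± 0.13 (edgeR, adjusted p = 0.000736). Prkca, a protein kinase C, had a log2 fold of 0.60 ± 0.18 (edgeR, adjusted p = 0.036), lost under 4 of 8 alternatives, and Wasf3, of the WAVE complex, 0.54 ± 0.11 (edgeR, adjusted p = 0.0102), lost under 1. Adam10, a protease that releases the extracellular part, had a log2 fold of -0.17 ± 0.10 (edgeR, adjusted p = 0.214).

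Protocadherins outside the clusters, which have no array of variable exons, moved in part. Of 11, 10 were tested, 5 were higher and 1 lower, beside 19.6% and 18.7% of all genes, with a median log2 fold of 1.46. Pcdh18 had 36.8, 34.1, 24.8 and 26.3 CPM in shLacZ and 60.5, 137.7, 154.2 and 121.3 CPM in the libraries labelled shDis3l2, without overlap, a log2 fold of 1.88 ± 0.28 (edgeR, adjusted p = 0.00311). Pcdh11x had 0.601, 1.42, 1.33 and 1.09 CPM against 1.23, 11.2, 14.7 and 11.7 CPM, a log2 fold of 2.92 ± 0.36 (edgeR, adjusted p = 0.00151). Pcdh10 had a log2 fold of 1.98 ± 0.34 (edgeR, adjusted p = 0.00492), lost under 1 of 8 alternatives. Pcdh1, an epithelial protocadherin, was the 1 that was lower, with -1.15 ± 0.12 (edgeR, adjusted p = 0.000868).

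Other genes at the locus did not move as a block. Taf7, a general transcription factor gene between the beta and gamma arrays, was at 0.590, 0.513, 0.579 and 0.669 of shLacZ from d6 to d12. Diaph1, just beyond the gamma array, was at 0.929, 0.620, 0.603 and 0.873. The antisense transcript Gm37446 at Pcdhb12 had 29, 43, 8 and 16 reads in shLacZ and 2, 9, 3 and 2 in the libraries labelled shDis3l2, whereas Pcdhb12 on the plus strand had 1, 3, 2 and 2 against 5, 5, 30 and 19. The antisense transcript BC037039, within the gamma array, had 6, 6, 3 and 2 reads in shLacZ against 9, 10, 23 and 9, too few to tell the lines apart on any day. These 4 genes were chosen after their values were seen.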

How the data were processed

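The authors isolated PolyA+ RNA, aligned the reads to GRCm38 with Subread and used featureCounts for gene counts. The deposited counts are whole reads without normalization. Strand and overlap settings are not given in the sources used here and were read from the counts. The deposited CPM values equal the count plus 0.25 over the sum of the 16181 protein-coding genes listed, without scaling between libraries. That gene list set which genes are members. All values here were computed from the counts, with CPM over the library total. The knockdown columns of both tables carry another hairpin name, and were assigned because the paper's supplementary copy of the CPM table, equal to rounding, heads them shDis3l2. Gene positions and exon lengths came from the deposited count table. Names and types of genes without normalized values came from GENCODE M21, which matched 50376 of 50686 genes.

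Tests used edgeR 4.0.16 in R 4.3.3 (quasi-likelihood, TMM, filterByExpr, adjusted p under 0.05) on all genes, with DESeq2 1.42.0 as the alternative. Alternatives also covered the scaling, the filter, the minimum CPM, the fold, thinning, the day term and leaving out each day. Intervals are exact (Clopper-Pearson, 95%) and leave out all but counting error, because without molecular identifiers PCR copies of 1 molecule count as several reads. Depth ranged from 7178712 to 39888099 reads. The rest was computed in Python 3.11.15 (scipy 1.17.1 for intervals, pandas 2.3.3 for tables, matplotlib 3.10.9 for plots), and the fits were tested on simulated data.

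The members and gene lists were chosen with earlier results of these data known. Named are the 4 members of each cluster with the highest mean CPM, the 2 largest and 2 smallest log2 folds over d6 to d12, the C-type genes, the entries without normalized values, Dis3l2, Smchd1, Ctcf, Dnmt3b and the 3 largest called folds of each other list. Pcdhga5, Pcdhga6, Pcdhgb1, Pcdhgb6, Pcdhgb7, Pcdhga1, Pcdhga4 and Pcdhga12 were named after their values were seen. So were Pcdhb4, Pcdhb11, Pcdhb12, Pcdhb15, Pcdhb16, Pcdhb20, Pcdh1, Adam10 and the members left out of the test.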

Additional observations from a re-analysis of the deposited data

Results flagged for a closer look

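The edgeR test of change compared the line difference on the early days (d0, d2 and d4) with that on the later ones (d6 to d12). It passed for 4 of 43 members tested and for Dis3l2, and for 0 members without d2, without d8 or without d10. Of all 20050 genes tested, 972 (4.85%) changed toward higher and 1051 (5.24%) toward lower. Other genes named here were among these, with changes of -2.45 for Dnmt3b, 1.34 for Tet2, 1.32 for Marcks, 2.39 for Pcdh10, 3.87 for Pcdh11x, 2.09 for Pcdh18, 1.18 for Nes, 4.49 for Col1a1, 5.44 for Col3a1, 6.02 for Postn and 3.41 for Dcn. The log2 fold of the line labelled shDis3l2 over shLacZ changed by 1.93 for Pcdhb22, 1.23 for Pcdhga7, 2.17 for Pcdhgb7 and 1.21 for Pcdhgc3. For Dis3l2, the target of the hairpin, it changed by 1.61 (edgeR, adjusted p = 0.0112), with ratios to shLacZ of 0.137, 0.281 and 0.321 on d0, d2 and d4 and 0.552, 0.971, 0.95 and 0.754 on the 4 later days. The Dis3l2 change passed under 10 of 10 alternatives, that of Pcdhgc3 under 7, Pcdhgb7 under 6, Pcdhb22 under 4 and Pcdhga7 under 2. Dis3l2 was thus closer to its control level on the later days than on the early ones. The cause was not tested.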

How the results depend on the processing

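No result past its threshold turned its direction under any alternative tried, while gamma at d0 and at d4, whose intervals hold 1, moved across 1 (1.24 with DESeq2 size factors, 0.931 without Pcdhgc3). Of 195 alternative fits of 26 members, 173 kept their side of the threshold, 20 lost a call and 2 gained one. These members are not all of those named: Pcdhga5 is among them, and Pcdhb12 and Pcdhgb1 are not. With library totals 29 of 38 members tested were higher over d6 to d12, beside 3440 of 17164 genes. Without a filter it was 31 of 44, beside 3601 of 30873 genes, and with DESeq2 it was 23 of 38, beside 2939 of 18303. Without the day term, where fewer members could be tested, it was 16 of 28, beside 1896 of 16016 genes. With 1 day left out it was 13 to 28 (0 to 0 lower), beside 1695 to 3441 genes. For the change from d0-d4 to d6-d12 it was 4 of 43 with library totals, beside 1135 of 20050 genes. Without a filter it was 8 of 44, beside 1788 of 33800 genes, and with DESeq2 it was 5 of 24, beside 1338 of 16107. With 1 day left out it was 0 to 3 (0 to 0 lower), beside 315 to 1169 genes. The unblocked fit is the one without the day term, and no other pairing of libraries is given by the labels.

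Scaling moved gamma ratios: d0 to 1.24 with DESeq2 size factors, d8 to 1.99 with TMM, and d12 over d0 to 12.1 (TMM) and 11.7 (DESeq2 size factors) in shLacZ and 17.9, 15.9 and 26.0 (total of the listed genes) in the line labelled shDis3l2. The cause was not tested. Without Pcdhgc3, a choice made after the values were seen, gamma was at 0.931, 1.93 and 1.61 at d4, d8 and d12. At d0, 1 (TMM) or 2 (DESeq2 size factors) of 4 members compared were at least 3-fold higher, beside 1.06% and 1.41% of protein-coding genes. Without a minimum CPM, which lets in genes with few reads, 23, 41, 40, 41 and 44 members were compared at d0 to d8. Of these 4, 5, 12, 13 and 13 were higher, and 4, 4 and 4 were lower at d0 to d4. On the same days 3.6% to 9.84% of protein-coding genes were higher and 5.56% to 9.56% lower. A minimum of 2 CPM left 0 of 9 higher and 0 lower at d4, beside 0.223% and 1.06%. It left 3 of 20 higher at d6 and 14 of 30 at d12, beside 2.34% and 7.13%. At a fold of 2, 1 of 3 was higher and 1 lower at d0, beside 1.57% and 10.3% of protein-coding genes. At d2, 1 of 10 was lower, beside 1.2%. At d4, 2 of 19 were higher and 2 lower, beside 1.6% and 5.15%. At d6, d8 and d10, 10 of 24, 20 of 31 and 29 of 35 were higher, beside 7.0%, 11.7% and 14.5%. Thinned to 1 depth, members above 3 counts were 0, 0 and 1 for alpha (shLacZ d2, shDis3l2 d2 and d4) and 1 (shLacZ d8), 0, 0, 2 and 11 for beta (shLacZ d2, shDis3l2 d2, d4 and d8), and 3 and 3 for gamma at d0.

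Depth was lowest in shLacZ d4, d10 and d12 (7178712, 8261330 and 10083038 reads). The libraries of d0 and d2 were the deepest, so the few beta reads there, at most 44 in a library, reflect a low level.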
